A study of Mus musculus with 6 samples.

Results

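The BCL2 family decides whether the mitochondrial route to cell death opens, and 10 of its genes were followed here in 4T1 cells, a mouse mammary carcinoma line, after a short exposure to KIRA6. KIRA6 was made as an inhibitor of IRE1α, the stress sensor of the endoplasmic reticulum, whose kinase pocket it occupies so that the attached RNase is dampened. The genes were taken by symbol from the 56691 genes of the deposited table, and all 10 were found, each in 1 row. They comprise 7 BH3-only genes (Bmf, Bcl2l11, Bbc3, Pmaip1, Bik, Bad and Bid) and 3 anti-apoptotic genes (Mcl1, Bcl2 and Bcl2l1). Of the 6 libraries of polyadenylated RNA, 3 came from cells given vehicle and 3 from cells given KIRA6 at 1 µmol/L, each for 4 h in fresh medium. No gene was altered by design, and whether replicates were separate cultures is not stated in the labels, so that p-values cover a spread between samples that may be technical.

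Anti-apoptotic members of the family hold the pore-forming effectors BAX and BAK in check at the outer mitochondrial membrane. BH3-only proteins sense damage or lost growth signals, bind the anti-apoptotic proteins through a short helix, the BH3 domain, and so free the effectors, and some of them also activate the effectors directly. In epithelial cells several BH3-only genes are known to be controlled at the level of transcription by growth factor signalling, whereas Bad and Bid are known mainly for control of the protein. RNA was measured here, and neither protein nor cell death was.

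The level of a gene is given in FPKM, fragments scaled to the exonic length of the gene and to the assigned fragments of the library, which allows comparison between genes. Libraries held an estimated 16490000 to 21329000 fragments. The carcinoma markers were abundant, with 6 epithelial genes summing to 1354 to 1495 FPKM in vehicle and 1552 to 1664 FPKM with KIRA6. Markers of fibroblasts summed to 0.40 to 0.71 and 1.81 to 3.70 FPKM, those of leukocytes to 0.080 to 0.37 and 0.46 to 0.76 FPKM, and those of endothelium to at most 0.060 FPKM in any library. Lum, Cd3e and Adgre1 were at 0 in all libraries. The part of these markers in the results was not tested. Libraries of a group also differed from each other along 1 shared axis, with 81.3% of the within-group variance. It placed Vehicle replicates 1 and 2 with KIRA6 replicate 1, and Vehicle replicate 3 with KIRA6 replicates 2 and 3. Each set holds both treatments, so fold changes were also computed within each set.

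The BH3-only genes Bmf, Bcl2l11 and Bbc3 rose with KIRA6, while Bid and the 3 anti-apoptotic genes fell. Bmf went from the edge of detection to a level like that of Bcl2l11, the group means of Bcl2l11 and Bbc3 had ratios of 2.68 and 3.77, and the decreases left between 40.3% and 60.7% of the vehicle level. Fold changes are differences of log2(FPKM + 0.5), fitted by limma over the 11778 genes that averaged 0.5 FPKM or more and called at a Benjamini-Hochberg adjusted p below 0.05. Of the 8 members that passed this filter, 3 were called higher and 4 lower, against 15.6% of all tested genes called higher and 7.98% called lower (23.6% in either direction). The groups did not overlap for 8 of the 8 (41.8% of all tested genes), with all KIRA6 libraries above in 4 (27.7%) and below in 4 (14.1%). Bmf passed the filter through its KIRA6 libraries alone, and Bik and Pmaip1 did not pass.

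**Figure D1:**
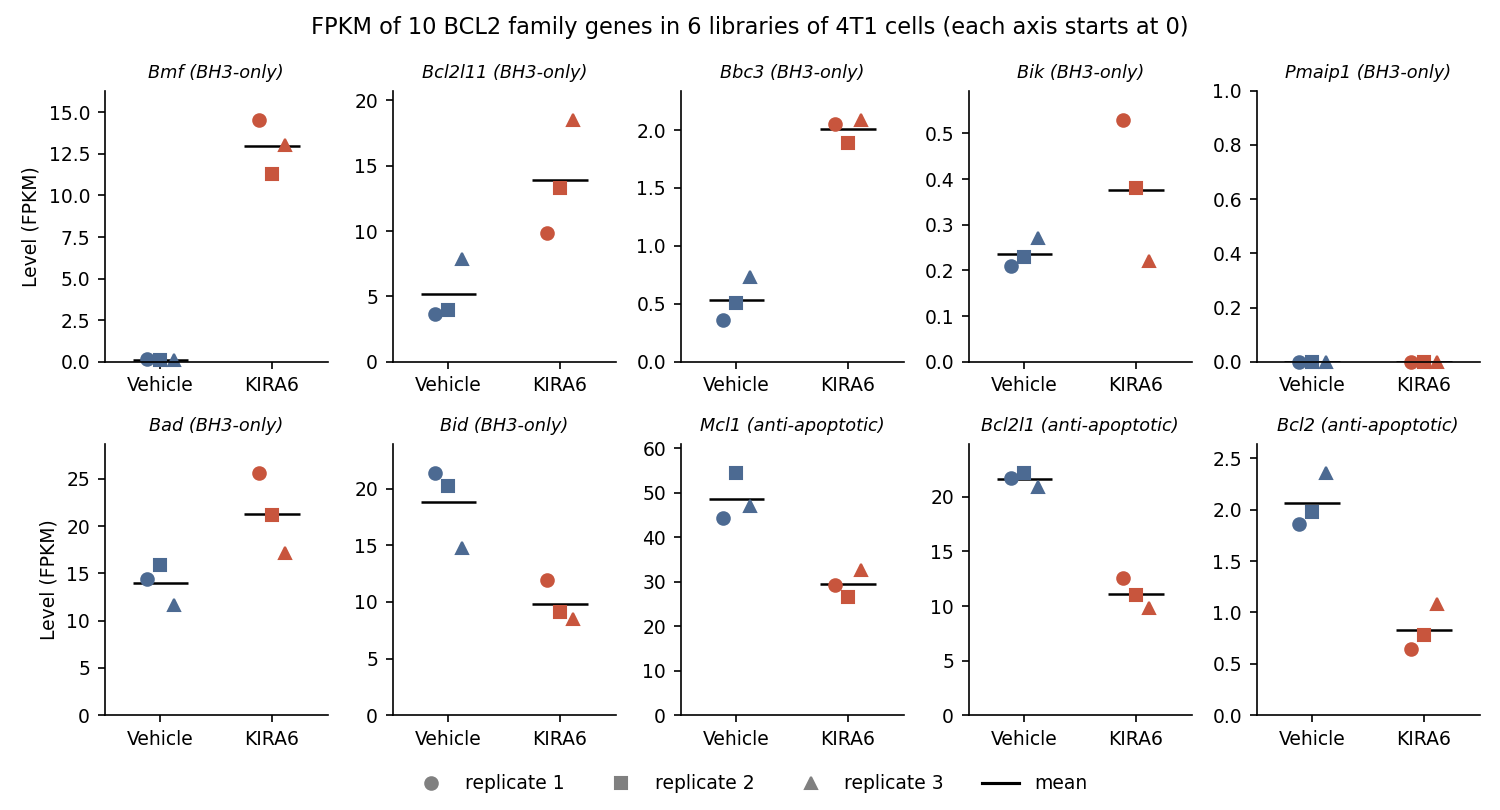
Level in FPKM (vertical axes, each from 0) of the 10 members in the 3 vehicle (blue) and 3 KIRA6 (red) libraries, with replicates as circle, square and triangle and the group mean as a bar. Bmf stands at 0.10 to 0.18 FPKM in vehicle and at 11.3 to 14.6 FPKM with KIRA6, Pmaip1 is at 0 in all 6 libraries, and Bik is the member above 0 whose groups overlap.

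Bmf encodes a BH3-only protein that is held on the actin-linked motor complex through a dynein light chain. On GRCm39 the gene (ENSMUSG00000040093) lies on the minus strand of chromosome 2, from 118359238 to 118380168. The vehicle libraries had 0.18, 0.10 and 0.10 FPKM, from an estimated 17, 9 and 10 fragments, and the KIRA6 libraries 14.6, 11.3 and 13.0 FPKM, from 1630, 1081 and 1359 fragments. The lowest KIRA6 library was far above the highest vehicle library. The group means of 0.127 ± 0.0462 and 13.0 ± 1.62 FPKM (SD, n = 3 each) had a ratio of 102.4. On the log2(FPKM + 0.5) scale, where the change of so low a gene is compressed, it was 4.42 ± 0.16 (SE, 95% interval 4.05 to 4.79, limma adjusted p = 8.664e-05), the second largest increase among all tested genes. With a pseudocount of 0.1 it was 5.86, above the 5.62 of Lrrc75b, which had the largest increase on the main scale. The rank of Bmf therefore depends on the pseudocount. In bulk RNA a rise in every cell and a larger rise in fewer cells cannot be told apart, here and below.

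Bcl2l11 encodes BIM, which binds all the main anti-apoptotic proteins and can activate BAX and BAK directly. The gene (ENSMUSG00000027381) lies on the plus strand of chromosome 2, from 127967958 to 128004467 on GRCm39. Its vehicle libraries had 3.65, 3.99 and 7.87 FPKM and its KIRA6 libraries 9.84, 13.3 and 18.5 FPKM. The groups did not overlap, but Vehicle replicate 3 lay close to KIRA6 replicate 1, and these libraries belong to opposite sets of the shared axis. The log2 fold change was 1.37 ± 0.34 (SE, limma adjusted p = 0.02845). It was 1.26 between KIRA6 replicate 1 and Vehicle replicates 1 and 2, and 0.951 between KIRA6 replicates 2 and 3 and Vehicle replicate 3. Leaving out Vehicle replicate 1 or 2, or KIRA6 replicate 2 or 3, ended the call (adjusted p = 0.08565, 0.1013, 0.09999 and 0.09769), as did testing without a filter on low genes (0.05899). The BIM isoforms, which differ in potency, cannot be separated in gene-level FPKM.

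Bbc3 encodes PUMA, another BH3-only protein that binds all the main anti-apoptotic members and is a classical target of p53. The gene (ENSMUSG00000002083) lies on the plus strand of chromosome 7, from 16042318 to 16052130 on GRCm39. Vehicle libraries had 0.36, 0.51 and 0.73 FPKM and KIRA6 libraries 2.05, 1.89 and 2.09 FPKM. Every KIRA6 library exceeded every vehicle library, although the vehicle values rest on only 14 to 29 fragments. The log2 fold change was 1.30 ± 0.18 (SE, 95% interval 0.88 to 1.71, limma adjusted p = 0.003816). Trp53 itself averaged 7.67 ± 1.44 FPKM with vehicle and 6.23 ± 1.03 FPKM with KIRA6 (SD, n = 3 each, limma adjusted p = 0.3285).

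The promoters of the members, those that rose, those that fell and Bad, were read for 4 short motifs, because FOXO, AP-1, ETS and E-box factors are known to act on genes of this family. RefSeq windows of GRCm38.p6, an older build than that of the deposited table, were available for 8 of the 10 members, and 16 windows in all ran from 250 bases before to 50 bases after a start. Both strands were searched, and no match overlapped another. The FOXO letters GTAAACA stood in 2 of the 16 windows, 1 of Bbc3 and 1 of Bcl2l11, against 3.65% of 32851 windows of all genes. They are shown here in capitals, 5′ to 3′ on the gene's strand, as the motif or its reverse complement. The Bbc3 stretch is chr7:16310049-16310145 and the Bcl2l11 stretch chr2:128125788-128125862, both on the plus strand of GRCm38.p6.
Bbc3: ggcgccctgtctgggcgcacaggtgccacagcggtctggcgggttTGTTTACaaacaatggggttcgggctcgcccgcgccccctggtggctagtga
Bcl2l11: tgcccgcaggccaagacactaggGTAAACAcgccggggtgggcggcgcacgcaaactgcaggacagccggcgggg

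The first base of the match lay 167 bases before the start in Bbc3 and 227 bases before it in Bcl2l11. None of the 4 motifs stood in the 3 windows of Bmf. The ETS letters CCGGAA stood in 5 of the 16 member windows, against 14.9% of all windows, and twin matches in 1 window were found in Mcl1. They are in capitals in the Mcl1 stretch, chr3:95658613-95658720 on the plus strand of GRCm38.p6, with first bases 63 and 30 bases before the start.
Mcl1: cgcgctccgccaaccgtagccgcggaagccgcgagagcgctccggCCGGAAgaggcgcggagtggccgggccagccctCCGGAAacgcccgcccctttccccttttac

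The other ETS matches were in Bcl2l11, Bcl2l1, Bid and Bad, thus in members of either direction. The AP-1 letters TGANTCA stood in 0 of the 16 windows, against 7.81% of all windows, and the E-box CACGTG in 1, of Bbc3, against 7.15%. A match of letters is a description of the window and shows no binding.

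Of the BH3-only genes with the highest levels in vehicle, Bid fell and Bad was not called. BAD is a protein that binds BCL2 and BCL-XL when survival kinases leave it unphosphorylated. Bad (chromosome 19, 6919229 to 6929267) had 14.4, 15.9 and 11.7 FPKM in vehicle and 25.6, 21.2 and 17.2 FPKM with KIRA6. The groups did not overlap, but the log2 fold change of 0.58 ± 0.19 (SE, 95% interval 0.12 to 1.04) missed the threshold (limma adjusted p = 0.07281). Within the library sets it was 0.74 and 0.682, and with the set as a covariate, an alternative chosen after seeing the data, it passed (0.71, adjusted p = 0.0007745). Such a covariate lowers the spread by its construction, and 49.5% of all tested genes were then called.

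BID is the BH3-only protein that caspase-8 cuts, which links death receptors to mitochondria. Bid (chromosome 6, 120868891 to 120893814) had 21.4, 20.3 and 14.8 FPKM in vehicle and 11.9, 9.14 and 8.47 FPKM with KIRA6, so that every KIRA6 library was lower. Its log2 fold change was −0.90 ± 0.20 (SE, limma adjusted p = 0.02106), and −0.782 and −0.717 within the library sets. Leaving out Vehicle replicate 1 or 2, or KIRA6 replicate 2 or 3, ended the call, with adjusted p = 0.0737, 0.08847, 0.09096 and 0.07829. Bid overlaps the end of Bcl2l13 on the opposite strand (6.60 to 8.17 FPKM in vehicle, 5.50 to 8.27 FPKM with KIRA6), and Bad overlaps Gpr137 in the same way (3.32 to 4.17 and 4.24 to 4.77 FPKM). The strand setting of the counting is not given in the sources used here, so shared fragments in these pairs cannot be told apart.

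Bik and Pmaip1 had little or no signal. Bik, whose BH3-only product resides on the endoplasmic reticulum, had 0.21, 0.23 and 0.27 FPKM in vehicle and 0.53, 0.38 and 0.22 FPKM with KIRA6, from 6 to 18 fragments. The groups overlapped, and without the filter its log2 fold change was 0.24 ± 0.16 (SE, limma adjusted p = 0.4508). Pmaip1, which encodes NOXA, an antagonist of MCL1, was listed at 0 in all 6 libraries. A count of 0 allows up to 3 fragments, or 0.0515 to 0.0666 FPKM for this gene, but this covers counting error only. Whether the 0 comes from absent RNA or from how reads were counted was not tested, so it sets no limit on expression.

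All 3 anti-apoptotic members fell, against the 7.98% of tested genes called lower. MCL1 is a short-lived protein that has to be replaced from its mRNA continually. Mcl1 (ENSMUSG00000038612, chromosome 3, 95566099 to 95570487, plus strand) was the most abundant member in both groups. Its vehicle libraries had 44.4, 54.5 and 47.0 FPKM and its KIRA6 libraries 29.3, 26.6 and 32.7 FPKM. No KIRA6 library reached the lowest vehicle library. The log2 fold change was −0.71 ± 0.15 (SE, 95% interval −1.06 to −0.36, limma adjusted p = 0.01593), and the call ended without Vehicle replicate 2 (adjusted p = 0.07889) or KIRA6 replicate 2 (0.07871).

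Bcl2l1 encodes BCL-XL, which holds BAX, BAK and several BH3-only proteins, as its long isoform. On GRCm39 the gene (ENSMUSG00000007659) lies on the minus strand of chromosome 2, from 152622588 to 152673648. It had 21.7, 22.2 and 20.9 FPKM in vehicle and 12.6, 11.0 and 9.79 FPKM with KIRA6, well separated. The log2 fold change was −0.93 ± 0.14 (SE, limma adjusted p = 0.004992). The long and the short, pro-apoptotic isoform share the gene-level value, as do those of Mcl1.

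Bcl2, the founding member, was low. The gene (ENSMUSG00000057329) lies on the minus strand of chromosome 1, from 106465908 to 106642004. It had 1.86, 1.98 and 2.36 FPKM in vehicle and 0.64, 0.78 and 1.08 FPKM with KIRA6, and all KIRA6 libraries were below all vehicle libraries. The ratio of the group means was 0.403, the smallest of the 3 anti-apoptotic genes, and the log2 fold change −0.95 ± 0.18 (SE, limma adjusted p = 0.01179). The call ended without KIRA6 replicate 2 (adjusted p = 0.05953), and limma-voom on the estimated fragments, which adds no 0.5 FPKM, gave −1.51 (adjusted p = 0.004727).

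**Figure D2:**
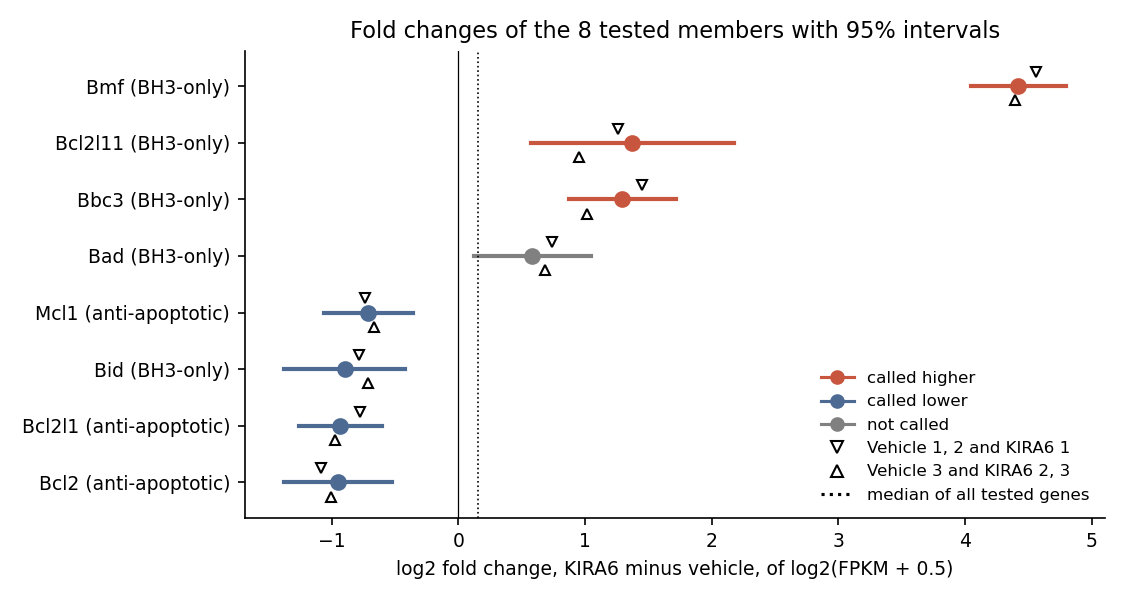
Log2 fold change (horizontal axis, KIRA6 minus vehicle, of log2(FPKM + 0.5)) of the 8 tested members, as filled circles with 95% intervals, with the same difference within each of the 2 library sets as open triangles and the median of all tested genes, 0.16, as a dotted line. As the groups do not overlap, every tested member has the direction of the full comparison in both sets. The differences run from 4.56 and 4.40 for Bmf to −1.09 and −1.01 for Bcl2.

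Directions of all 8 tested members were the same in both library sets and in each of the 18 alternative analyses. As their groups did not overlap, only alternatives that change the scaling between libraries could have reversed a direction, and none did. Over all tested genes the median change was 0.16 on the log2 scale, and −0.0084 after median-ratio scaling. The shift is small beside the changes of the 7 called members. For Bad, the member nearest to it, median-ratio scaling gave 0.40 (adjusted p = 0.214). With the libraries farthest apart from their groups, Vehicle replicate 3 and KIRA6 replicate 1, both left out, the log2 fold changes were 4.31 for Bmf, 1.91 for Bcl2l11, 1.42 for Bbc3, 0.32 for Bad, −1.20 for Bid, −0.73 for Mcl1, −1.05 for Bcl2l1 and −0.77 for Bcl2. The vehicle and KIRA6 libraries that remain belong to opposite sets of the shared axis. Treatment and library set therefore cannot be told apart in these values. The same 7 members were called, beside 56.1% of all tested genes, and Bad was not (limma adjusted p = 0.0766). With 3 libraries a group, an exact permutation test has a smallest p of 0.1, and limma is therefore the test given for each gene.

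The order of the levels differed between the groups. In vehicle it ran from Mcl1 (48.6 ± 5.24 FPKM) through Bcl2l1 (21.6 ± 0.674), Bid (18.8 ± 3.54), Bad (14.0 ± 2.13), Bcl2l11 (5.17 ± 2.34), Bcl2 (2.07 ± 0.261), Bbc3 (0.533 ± 0.186), Bik (0.237 ± 0.0306) and Bmf (0.127 ± 0.0462) to Pmaip1 at 0 (SD, n = 3). The libraries of Bcl2l1 and Bid, and those of Bid and Bad, overlapped, and the other neighbours did not. With KIRA6 the order was Mcl1 (29.5 ± 3.10), Bad (21.3 ± 4.24), Bcl2l11 (13.9 ± 4.37), Bmf (13.0 ± 1.62), Bcl2l1 (11.1 ± 1.40), Bid (9.84 ± 1.82), Bbc3 (2.01 ± 0.106), Bcl2 (0.833 ± 0.225), Bik (0.377 ± 0.155) and Pmaip1. Here the neighbours from Bad down to Bid overlapped, so that the order of neighbours is not resolved by these libraries. Bad nevertheless lay above Bmf, Bcl2l1 and Bid in all KIRA6 libraries. Bmf moved from the lowest detected level to one within the range of Bcl2l11, which overlapped that of Bcl2l1.

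Summed over the 7 BH3-only genes, the level was 40.2, 41.0 and 35.5 FPKM in vehicle and 64.5, 57.2 and 59.5 FPKM with KIRA6. The 3 anti-apoptotic genes summed to 68.0, 78.7 and 70.3 FPKM in vehicle and to 42.5, 38.3 and 43.6 FPKM with KIRA6. Anti-apoptotic transcripts thus exceeded BH3-only transcripts in each vehicle library, by a ratio of 1.69, 1.92 and 1.98, and were fewer in each KIRA6 library, at 0.658, 0.670 and 0.733. That the BH3-only sum was the larger with KIRA6 depended on Bad, which was not called and had 25.6, 21.2 and 17.2 FPKM there. Without Bad in the sum, anti-apoptotic transcripts exceeded BH3-only transcripts in each KIRA6 library too. These sums are descriptions of transcript levels of chosen genes and carry no test.

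The make-up of the BH3-only sum also differed. Bid made up 53.2%, 49.4% and 41.7% of it in vehicle and 18.5%, 16.0% and 14.2% with KIRA6. Bmf went from at most 0.447% to 22.6%, 19.8% and 21.9%, and Bcl2l11 from 9.07%, 9.74% and 22.2% to 15.3%, 23.2% and 31.1%, with overlap between the groups. Bad held 33.0% to 38.8% in vehicle and 28.8% to 39.8% with KIRA6. Within the anti-apoptotic sum Mcl1 held 65.3% to 69.3% in vehicle and 68.9% to 75.1% with KIRA6, and these ranges overlapped.

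**Figure D3:**
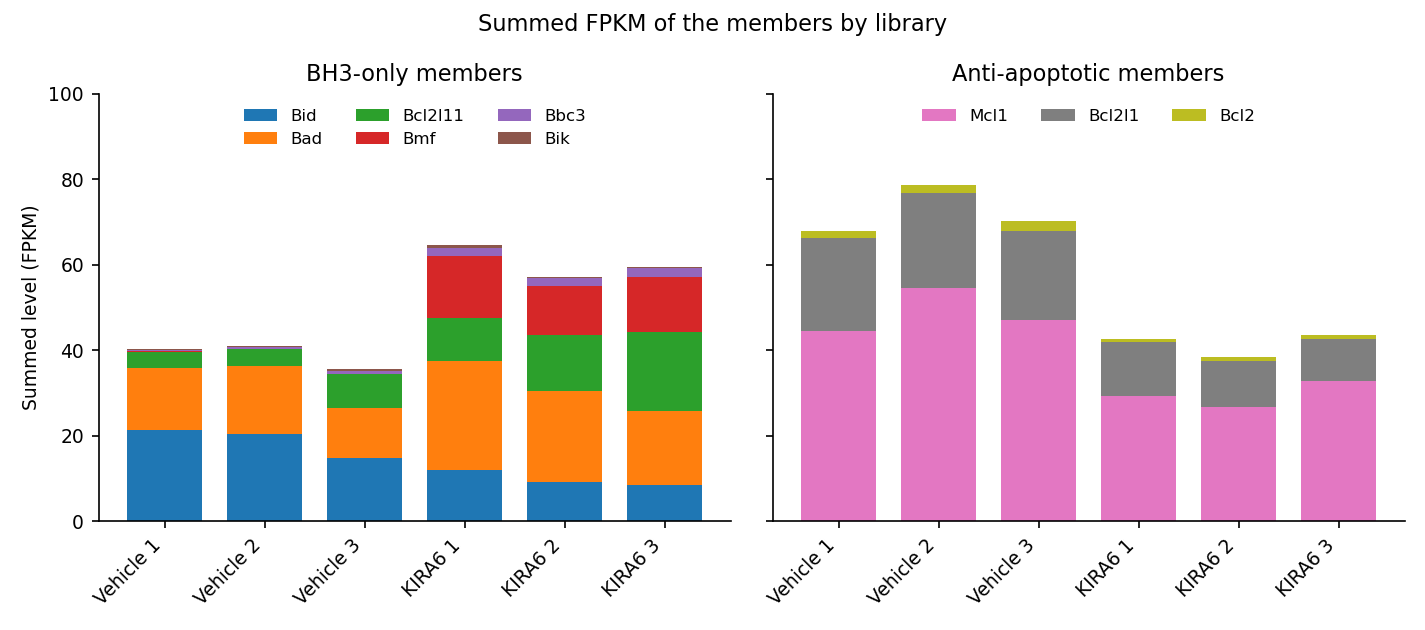
Summed level in FPKM (vertical axis, from 0) of the BH3-only members (left) and the anti-apoptotic members (right) in each of the 6 libraries, stacked by gene. The BH3-only bars stand at 35.5 to 41.0 FPKM in vehicle and 57.2 to 64.5 FPKM with KIRA6, and the anti-apoptotic bars at 68.0 to 78.7 and 38.3 to 43.6 FPKM.

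Genes around the members were counted in 7 lists, with 42 of 50 genes tested. Of these 9 were called higher and 2 lower, or 26.2% in all, close to the 23.6% of all tested genes, and the median log2 fold change was 0.058 beside 0.16 for all genes. The pore-forming effectors were not called. Bax averaged 31.5 ± 5.64 FPKM with vehicle and 33.0 ± 8.40 FPKM with KIRA6, Bak1 47.1 ± 1.91 and 48.2 ± 2.89 FPKM, and Bok 42.5 ± 18.5 and 25.7 ± 4.05 FPKM (SD, n = 3 each, limma adjusted p = 0.8934, 0.8811 and 0.173). The 95% intervals of their log2 fold changes ran from −0.48 to 0.59, −0.26 to 0.32 and −1.37 to 0.08.

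Both tested BH3-like genes of mitophagy rose, where 15.6% of all tested genes were called higher. Bnip3l went from 13.0, 10.4 and 7.61 FPKM in vehicle to 19.9, 18.6 and 19.7 FPKM with KIRA6 (limma adjusted p = 0.02061), and Bnip3 from 12.7, 13.3 and 8.29 to 25.4, 18.3 and 19.8 FPKM (adjusted p = 0.03273). Neither group pair overlapped. The call for Bnip3l ended without Vehicle replicate 2 or any 1 KIRA6 library. That for Bnip3 ended without any 1 library except Vehicle replicate 3, without a filter on low genes, and with median-ratio scaling or limma-voom. Hrk, a neuronal BH3-only gene, was at most 0.03 FPKM. Bcl2l2, which encodes the anti-apoptotic BCL-W, had 3.88 ± 0.664 and 3.11 ± 0.136 FPKM (SD, n = 3 each, limma adjusted p = 0.286), and was the 1 tested gene of 5 further anti-apoptotic genes. Bcl2a1a, Bcl2a1b, Bcl2a1d and Bcl2l10 were listed at 0 in all libraries, and the Bcl2a1 genes are near-identical copies whose reads may not be assigned. Of the less characterised BCL2-like genes, Bcl2l12 rose from 1.44 ± 0.360 to 2.97 ± 0.373 FPKM (adjusted p = 0.02106), a call that ended with quantile normalization and on leaving out Vehicle replicate 1 or 2, or KIRA6 replicate 2 or 3.

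Downstream of the mitochondria, 3 of 15 genes of the apoptosome, the caspases and their inhibitors rose and 12 were not called. The list median was 0.15, and the share called higher was near the 15.6% of all tested genes. Birc2, which encodes the caspase regulator cIAP1, rose from 2.58 ± 0.526 to 6.61 ± 0.546 FPKM (limma adjusted p = 0.004643). Casp9, the initiator caspase of the apoptosome, rose from 1.61 ± 0.326 to 3.32 ± 0.140 FPKM (adjusted p = 0.0116), and Dffa, the inhibitor of the apoptotic nuclease, from 2.67 ± 0.480 to 4.15 ± 0.246 FPKM (adjusted p = 0.04593). The call for Dffa ended when any 1 library was left out, without a filter on low genes, and with median-ratio scaling, quantile normalization or limma-voom. That for Casp9 ended with quantile normalization and without KIRA6 replicate 2. Apaf1, Cycs, Diablo, Xiap and Birc5 were among the 12 genes not called.

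Among transcription factors reported to act on these genes, Ddit3 and Foxo4 rose and Jun fell, of 9 tested, with a list median of 0.063. Over all tested genes 15.6% were called higher and 7.98% lower. Ddit3 encodes CHOP, an activator of Bcl2l11 and a repressor of Bcl2 in other systems, and went from 3.74 ± 0.692 to 9.84 ± 2.15 FPKM (limma adjusted p = 0.008107). Foxo4 rose from 7.69 ± 0.656 to 12.7 ± 0.749 FPKM (limma adjusted p = 0.01262), a call that ended without Vehicle replicate 1 or Vehicle replicate 2. Foxo3, the FOXO factor best known at Bcl2l11 and Bbc3, had 1.17, 1.56 and 2.44 FPKM in vehicle and 2.32, 3.58 and 5.16 FPKM with KIRA6, with overlapping groups (adjusted p = 0.08484). Jun, which encodes an AP-1 subunit, fell from 32.1 ± 5.01 to 13.8 ± 1.57 FPKM (adjusted p = 0.004008). FOXO factors are known to be controlled mainly by phosphorylation, which RNA does not show.

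Of 10 genes whose products bind, modify or degrade members of the family, 1 rose and 1 fell, with a list median of 0.064. The shares of all tested genes were 15.6% higher and 7.98% lower. Pim1, a survival kinase that phosphorylates BAD, rose from 3.96 ± 0.995 to 12.4 ± 1.91 FPKM (limma adjusted p = 0.003494). Akt1, another BAD kinase, fell from 189.5 ± 13.8 to 131.6 ± 10.8 FPKM (adjusted p = 0.03428). That call ended in the test without a filter and on leaving out Vehicle replicate 1 or 2, or KIRA6 replicate 2 or 3. The dynein light chains that bind BIM and BMF were abundant and not called, with Dynll1 at 137.6 ± 10.9 and 151.3 ± 19.0 FPKM and Dynll2 at 68.1 ± 4.47 and 77.3 ± 3.19 FPKM.

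**Figure D4:**
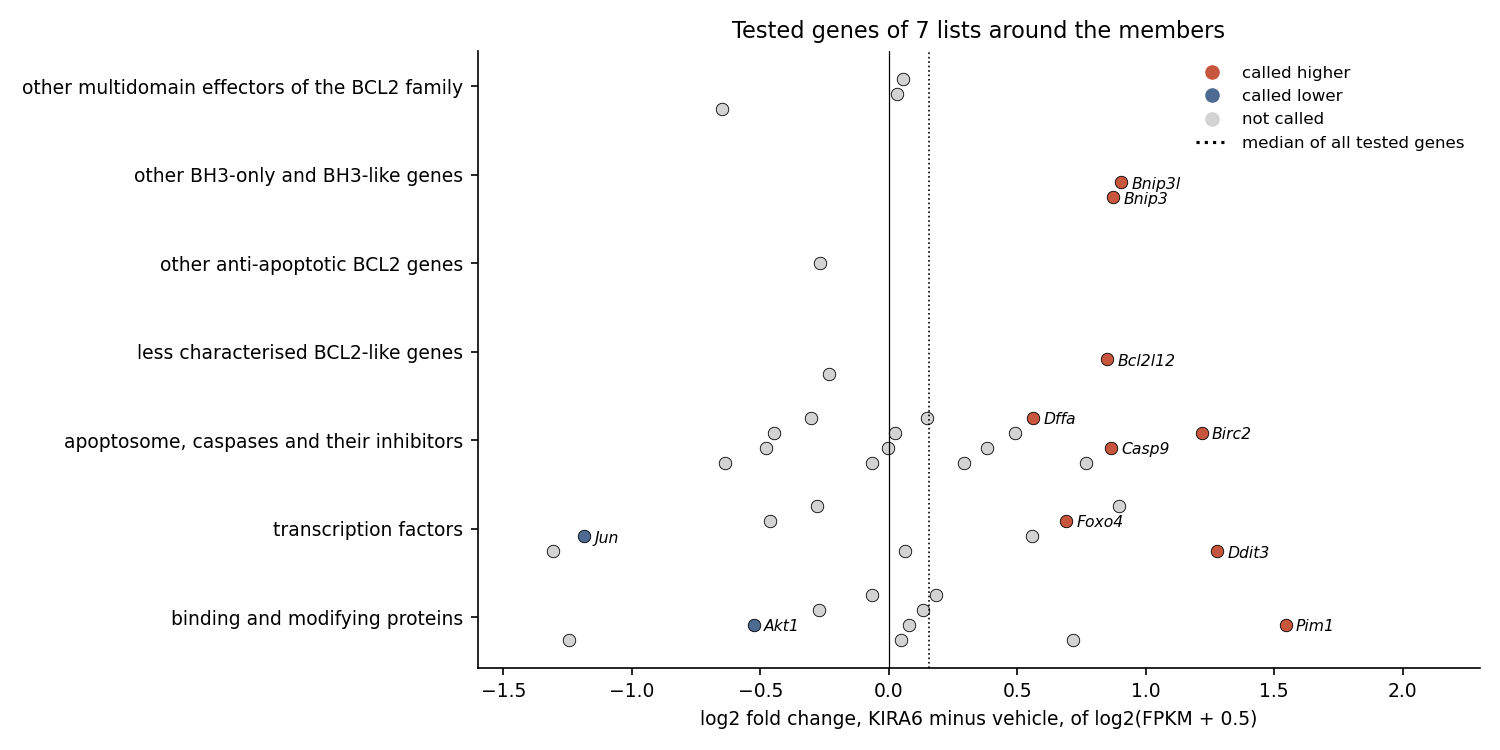
Log2 fold change (horizontal axis, KIRA6 minus vehicle, of log2(FPKM + 0.5)) of the 42 tested genes of 7 lists, 1 point a gene and 1 row a list, with called genes coloured and named and the median of all tested genes, 0.16, as a dotted line. Called genes number 9 to the right and 2 to the left, and the 3 effectors in the top row are not called.

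The genes whose profiles over the 6 libraries were most like those of 3 members were named by the root-mean-square (RMS) difference of log2(FPKM + 0.5), each profile centred on its vehicle mean. For Bmf they were Lrrc75b (RMS difference 0.353), Fas (0.628), which encodes a death receptor, and Cpt1a (0.809), a gene of fatty acid oxidation. Fas had 0.32, 0.35 and 0.44 FPKM in vehicle and 12.3, 9.88 and 7.89 FPKM with KIRA6. For Bcl2l11 they were Klf3 (0.112), Prkd2 (0.116) and B3gnt3 (0.118), which also had their highest vehicle value in Vehicle replicate 3 and their lowest KIRA6 value in KIRA6 replicate 1. For Mcl1 they were Adarb1 (0.0641), Skp2 (0.0666), which encodes a ubiquitin ligase subunit, and Mapk6 (0.0764). The smaller differences for Mcl1 and Bcl2l11 go with smaller fold changes, which many genes share. Calls among these 9 genes ended under some alternatives for all but Lrrc75b, Fas and Cpt1a.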

How the data were processed

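Per the submitters' processing notes, the tools included cutadapt 1.9.1, HISAT2 2.2.1, HTSeq 0.6.1 and DESeq2 1.34.0 on GRCm39. No settings are named, strand included. FPKM as deposited by the authors come per gene and library, beside exonic lengths and coordinates. Library totals were recovered from the steps of FPKM times length in genes of at most 600 bases, where 96.2% to 99.7% of 865 to 1093 values per library lay within 0.1 fragment of a whole number. From the deposited FPKM, limma 3.58.1 (R 4.3.3, intensity trend, robust empirical Bayes, two-sided) compared log2(FPKM + 0.5) between KIRA6 and vehicle, with no other term. It ran on the 11778 genes that averaged 0.5 FPKM or more, with Benjamini-Hochberg adjustment over all of them. Voom, an alternative, took the recovered fragments, rounded, with library totals scaled by the trimmed mean of M values.

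The members and lists were chosen with earlier results of these data known, so their counts are descriptions. All 10 members were named whatever their values, as were up to 4 called genes of each list, 3 most alike genes for each of Bmf, Bcl2l11 and Mcl1, and other list genes chosen after their values were seen. Promoter windows are RefSeq's, by symbol, and protein sequences were not used here. The list and marker counts leave out 2 genes that are not reported here. The alternatives changed the pseudocount, filter, scaling, empirical Bayes settings, library weights and block, used voom, or left libraries out, and the library set as a covariate was added after seeing the data, as were all alternatives for list genes and most alike genes.

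The comparison was tested on simulated data of its 6 libraries with 200 of 11778 genes altered: of those altered 1.5-fold 4% were found, of those altered 2-fold 48%, at 4-fold 84% and at 8-fold 92%, with 9 of 123 calls false. A gene that was not called may therefore have changed. These rates belong to the simulated data, where 200 genes were altered, whereas 2783 genes were called in the data. They need not hold for the data, and the effect of the shared axis of the libraries on them was not tested.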

Additional observations from a re-analysis of the deposited data

How the results depend on the processing

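Over 18 alternatives for each of the 8 tested members, 144 values in all, 129 kept their side of the threshold. Of the rest, 12 lost the call and 3, all of Bad, gained it. Direction changed in 0, and only a change of scaling could have changed it, as the groups did not overlap. Calls for Bmf, Bbc3 and Bcl2l1 held in all 18, with adjusted p of at most 0.002294, 0.02363 and 0.03464. With 1 library left out, 2 to 3 members were called higher and 1 to 4 lower, the lowest count being without KIRA6 replicate 2, beside 2 when Vehicle replicate 2 was left out. All called genes then numbered 1211 to 3392 in place of 2783, and list genes 4 to 9 higher and 1 to 4 lower in place of 9 and 2. With both Vehicle replicate 3 and KIRA6 replicate 1 left out, 6610 genes were called. List genes then numbered 14 higher and 9 lower, and members 3 and 4. Leaving out libraries that lie apart lowers the spread by construction, and the groups that remain differ in library set as well as in treatment. Array weights called 10003 genes, with 21 list genes higher and 15 lower, and their estimation stopped before it converged. The library set as a covariate called 5826 genes and 11 list genes lower. Whether replicate numbers pair the samples is not stated in the labels. Same-numbered deviations correlated at 0.762, −0.469 and 0.738 across genes, which does not settle it. Vehicle replicates 1 and 3 correlated best with the KIRA6 library of their own number. The replicate block called 4423 genes, 8 list genes lower, and Bad (adjusted p = 0.01396), and Vehicle replicate 2 correlated best with KIRA6 replicate 1, not with its own number. Median-ratio scaling called 1296 genes higher and 1438 lower in place of 1843 and 940. With no filter on low genes 1 list gene was called lower. The causes of these differences were not tested. Depth limits Bmf and Bbc3 in vehicle, and Bik.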

Other observations

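Some genes around the family differed more between the library sets than between the treatments. The sets were defined from all tested genes of these same data, so differences between them are partly built in. The genes below were chosen after their values were seen, and are a description only. Huwe1, which encodes a ubiquitin ligase of MCL1, had 5.31 and 5.53 FPKM in Vehicle replicates 1 and 2 and 4.76 FPKM in KIRA6 replicate 1, against 20.7 FPKM in Vehicle replicate 3 and 8.65 and 16.5 FPKM in KIRA6 replicates 2 and 3. Its log2 fold change was 0.048 ± 0.62 (SE, limma adjusted p = 0.9684). Usp9x, which encodes a deubiquitinase of MCL1, had 2.29, 1.93 and 2.49 FPKM in the first set and 4.48, 5.83 and 7.40 FPKM in the second. Cycs, which encodes cytochrome c, had 110.3, 102.8 and 69.2 FPKM in the first set and 56.0, 53.9 and 44.8 FPKM in the second. Unlike these genes, Myc had treatment groups that did not overlap. It had 30.5, 34.2 and 97.6 FPKM in vehicle and 12.8, 23.0 and 21.8 FPKM with KIRA6, but was not called (limma adjusted p = 0.09095).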
